A study of Mus musculus with 27 samples.

Results

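The 8 genes described here, Tcp1, Cct2, Cct3, Cct4, Cct5, Cct6a, Cct7 and Cct8, encode the subunits of the cytosolic chaperonin CCT, also called TRiC. They were found by matching the Ensembl gene identifiers of the deposited count table to these 8 symbols, and all 8 matched, of 52550 genes in the table. The chaperonin is a double ring in which each ring holds 1 copy of every subunit, and it closes over newly made proteins and folds them with ATP. Actin and tubulin are its best known clients, prefoldin hands unfolded actin and tubulin to it, and phosducin-like proteins act with it as co-chaperones. Because each subunit has a fixed place in the ring, the complex needs all 8 gene products.

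RNA sequencing was done on the ileum, cecum and colon of male C57BL/6 mice that were 6 weeks old on arrival and had 7 days to settle. Each diet group held 10 mice, kept for 60 days on control feed or on feed with 30 ug/g of arsenic, of which arsenite made up 72.7%, dimethylarsinic acid (DMA) 19.0%, arsenate 7.3% and monomethylarsonic acid (MMA) 1.0%. The 27 libraries comprised 4 control and 5 arsenic-fed ileum libraries, 4 control and 5 arsenic-fed cecum libraries, and 5 control and 4 arsenic-fed colon libraries. Libraries are named here by region, feed and the number in their label, and p-values measure the spread between these libraries. The libraries were made from bulk tissue, in which fewer cells of a type and less RNA per cell cannot be told apart.

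Each library held between 15717600 and 18208518 counts. A single member had between 944 and 3798 counts in a library, so all 8 passed the filter on low counts in every comparison, and together they took between 0.0801% and 0.138% of a library's counts. Levels are given as CPM (counts scaled to a common library total) after TMM scaling over all 27 libraries, and differences as log2 fold changes with their standard error (SE). A gene was called where edgeR's quasi-likelihood test gave a Benjamini-Hochberg adjusted p under 0.05 over all genes tested.

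The labelled regions were checked by genes of known position along the gut, and 3 libraries stood apart from their group. In the ileum, the arsenic-fed libraries 14 and 15 had 6.13 and 1.33 CPM of Fabp6, the ileal bile acid binding protein, against 219 to 4272 CPM in the other ileum libraries. In the colon, control library 1 had 0 counts of Hoxb13, a homeobox gene of the distal hindgut, which allows up to 0.159 CPM at 3 counts, against 40.2 to 239 CPM in the other colon libraries. The same library had 68.0 CPM of the water channel Aqp8 and 161 CPM of the chloride exchanger Slc26a3, against 673 to 1649 and 777 to 2508 CPM in the rest of the colon. Subunit calls and the summed subunit level are given with and without these libraries. Levels of single genes, shares and correlations include them unless stated. For other gene lists the counts without them are given where they differ.

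The genes lie on 8 chromosomes, with coordinates from GENCODE M21 on GRCm38. Tcp1, the alpha subunit and the founding member of the family, lies at 12915701 to 12925067 on the plus strand of chromosome 17. Cct2, the beta subunit, lies at 117051001 to 117063814 on the minus strand of chromosome 10. Cct3, the gamma subunit, lies at 88297116 to 88321767 on the plus strand of chromosome 3. The delta subunit gene Cct4 spans 22990519 to 23003780 on the plus strand of chromosome 11, and the epsilon subunit gene Cct5 spans 31590800 to 31601804 on the minus strand of chromosome 15. The zeta subunit gene Cct6a spans 129786998 to 129846371 on the plus strand of chromosome 5. The eta subunit gene Cct7 spans 85451514 to 85468475 on the plus strand of chromosome 6, and the theta subunit gene Cct8 spans 87483326 to 87495873 on the minus strand of chromosome 16. Exons of 4 members overlap exons of a gene on the opposite strand: 571 of the 2860 exonic bases of Tcp1 overlap Acat3, 452 of 2454 of Cct6a overlap Psph, 214 of 2441 of Cct7 overlap Pradc1 and 192 of 2398 of Cct8 overlap Usp16. The strand setting of the counting is not given in the sources used here, and the counts of these 4 genes may hold or lack reads of their neighbours. The testis paralogs Cct6b and Cct8l1 had at most 21 and 16 counts in a library.

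Heat shock factor binds repeats of the element GAA, and the HSP70 and HSP90 genes that serve as comparison in the diet results include its textbook targets, so the promoters of both groups are shown. RefSeq windows on GRCm38.p6 from 250 bases before to 50 bases after each gene's start were searched on both strands. A pair of facing units, GAANNTTC or TTCNNGAA, was found in 3 of 9 windows of the subunit genes and in 15.1% of all 32841 windows. A run of 3 units, GAANNTTCNNGAA or TTCNNGAANNTTC, which always contains the pair, was found in 0 of the 9 windows and in 0.603% of all. Cct4 has no window in the table, nor have Hspa8, Hsp90aa1 and Hsp90ab1. Among the genes of the HSP70 and HSP90 system and the mitochondrial chaperonin, 11 of 20 windows (10 of 15 genes) held the pair and 5 of 20 windows (4 of 15 genes) held the run of 3. These 4 genes are Chordc1, Hsph1, Hspd1 and Hspe1, the last pair sharing 1 stretch, and the windows of Hsph1 overlap. The letters of 4 such places are printed 5′ to 3′ on the gene's strand with the matched units in capitals, to show a pair of units beside the longer runs.
Cct2: cccaagtgaaGAAGTTTCtagcaggacc
Cct5: cagcggccgaTTCCAGAAgctactctgc
Chordc1: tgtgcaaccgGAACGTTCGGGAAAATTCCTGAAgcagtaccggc
Hspe1: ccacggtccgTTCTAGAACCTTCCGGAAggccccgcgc
The Cct2 stretch is chr10:117063400-117063427 on the minus strand, before the more downstream of its RefSeq starts, and the Cct5 stretch is chr15:31601863-31601890 on the minus strand. The stretch of Chordc1, which encodes an HSP90 co-chaperone, is chr9:18292253-18292296 on the plus strand. The stretch of Hspe1 is chr1:55088049-55088086 on the plus strand, and it lies between the divergent starts of Hspe1 and Hspd1, the co-chaperonin and the chaperonin of mitochondria. A match is a description of these letters and not of a bound site. The CCAAT box, searched as CCAAT or ATTGG, was found in 4 of the 9 subunit windows and in 37.4% of all, and the E-box CACGTG in 0 of the 9 and in 7.15% of all.

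Within each library the subunit transcripts were present at similar levels per length. Levels were compared between genes as CPM per kb of coding sequence over 7 members, since Cct6a has no coding sequence in the annotation used; their coding lengths were 1605 to 1668 bases. Within a library the highest of the 7 was between 1.41 and 1.98 times the lowest. Averaged over the 27 libraries, Cct5 took 17.98% of the per-length sum, Cct2 16.2%, Cct7 15.35%, Cct4 14.5%, Cct8 12.9%, Cct3 11.7% and Tcp1 11.3%, but the order differed between groups. Cct5 had the highest mean share in 5 of the 6 groups, and in arsenic-fed ileum Cct2 had 17.5% and Cct5 16.9%. Without ileum arsenic 14 and 15 the 2 genes were close, with 17.1% ± 1.05 for Cct2 and 17.0% ± 0.56 for Cct5 (SD, n = 3). In control cecum Cct7 had 16.6% and Cct2 15.5%. In arsenic-fed colon Cct4 had 16.6% ± 0.48, above Cct7 with 15.2% ± 0.20 and close to Cct2 with 16.4% ± 0.51 (SD, n = 4). Tcp1 had the lowest mean share in the ileum and cecum groups, and Cct3 in both colon groups. In arsenic-fed cecum Tcp1 was close to Cct3, with 11.4% ± 0.26 and 11.5% ± 0.65 (SD, n = 5). Across the 27 libraries the log2 CPM of the 28 pairs of members had Pearson correlations of 0.787 to 0.951 with a median of 0.872, and of 0.428 to 0.879 with a median of 0.667 once each group's mean was subtracted. These correlations describe libraries that share region, feed and scaling.

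**Figure D1:**
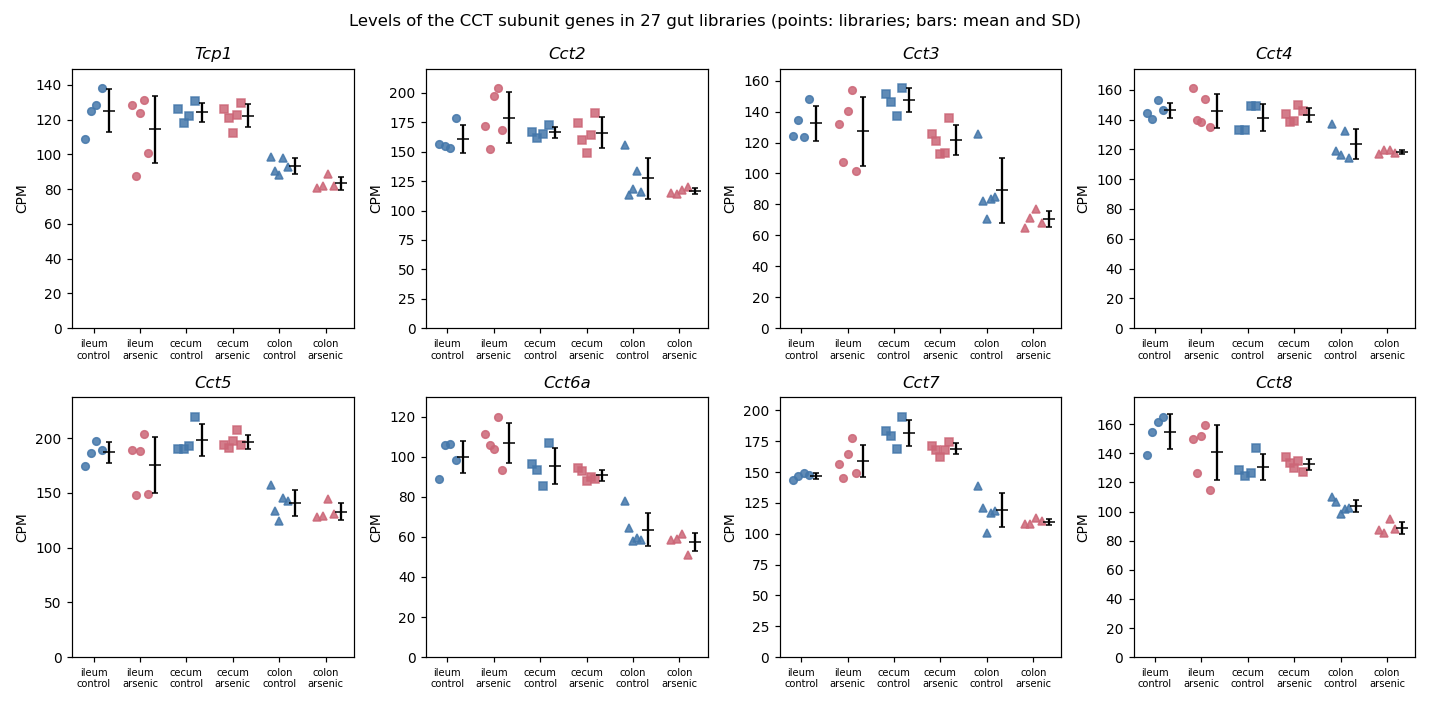
Level of each subunit transcript in every library, in CPM after TMM scaling (vertical axis), by region and feed (horizontal axis); points are libraries and bars the mean and SD of a group. Both colon groups have the lowest means for each subunit. Colon control library 1, the first point of its group, lies above the other colon libraries for each subunit, with the widest gap for Cct3.

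The levels of each subunit in the 6 groups are given as mean CPM ± SD, with 4 or 5 libraries per group. Cct3 had 133 ± 11.4 CPM in control and 127 ± 22.1 in arsenic-fed ileum, 148 ± 7.94 and 122 ± 9.48 in cecum, and 89.2 ± 21.0 and 70.4 ± 5.29 in colon. Without colon control 1 the control colon mean of Cct3 was 80.2 ± 6.56 CPM (SD, n = 4). Cct7 had 147 ± 2.49 and 159 ± 12.9 CPM in ileum, 182 ± 10.8 and 169 ± 4.43 in cecum, and 119 ± 13.7 and 109.7 ± 2.38 in colon. Control cecum had the highest mean for both genes and arsenic-fed colon the lowest.

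Cct8 and Cct6a had their highest means in the ileum rather than the cecum, as had Tcp1, Cct2 and Cct4. Cct2 had 179 CPM in arsenic-fed ileum, against 166 CPM in both cecum groups. Cct8 had 155 ± 11.8 CPM in control and 141 ± 18.9 in arsenic-fed ileum, 131 ± 8.89 and 133 ± 3.89 in cecum, and 104 ± 4.35 and 88.9 ± 4.27 in colon. Cct6a had 99.9 ± 8.15 and 107 ± 9.77 CPM in ileum, 95.6 ± 8.96 and 90.9 ± 2.75 in cecum, and 63.7 ± 8.47 and 57.6 ± 4.47 in colon. Among the 4 ileum and cecum groups the means of Cct6a lie within about the spread of the libraries, apart from arsenic-fed ileum against arsenic-fed cecum, which was called.

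For Tcp1, Cct2, Cct4 and Cct5 the ileum and cecum groups were close. Tcp1 had 114 to 125 CPM as group means there and 93.5 ± 4.51 and 83.3 ± 3.71 CPM in control and arsenic-fed colon. Cct2, which is also known as a receptor in the clearance of protein aggregates, had means of 161 to 179 CPM there and 127 ± 17.5 and 117 ± 2.70 CPM in colon. Cct4 had 141 to 146 CPM there, and its colon means of 124 ± 10.2 and 118 ± 1.25 CPM were the nearest to the other regions. Cct5, in which mutations are known to cause a hereditary sensory neuropathy in people, had 176 to 198 CPM there and 141 ± 12.2 and 133 ± 7.70 CPM in colon.

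The largest differences were between regions. The summed level of the 8 subunits was 1154 ± 55.5 CPM (SD, n = 4) in control ileum, 1186 ± 60.0 (n = 4) in control cecum and 861 ± 84.7 (n = 5) in control colon. On arsenic feed it was 1148 ± 129.8 CPM (SD, n = 5) in the ileum, 1142 ± 34.9 (n = 5) in the cecum and 778 ± 26.1 (n = 4) in the colon. The highest colon library, control 1 with 999.7 CPM, was below the lowest of the other regions, the arsenic-fed ileum libraries 12 and 15, which had 1013 CPM each. The remaining 8 colon libraries lay between 759 and 871 CPM. Without the 3 libraries that stood apart, control colon had 826 ± 39.4 CPM (SD, n = 4) and arsenic-fed ileum 1141 ± 111 CPM (SD, n = 3).

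In control colon against control cecum, 7 of 8 subunits were lower, with 25.3% of all genes tested called lower. The gamma subunit Cct3 had 151, 147, 137 and 155 CPM in the cecum libraries 1, 2, 4 and 5, and 125, 82.2, 70.5, 83.3 and 84.7 CPM in the colon libraries 1 to 5. Every colon library was below every cecum library, and colon 1 lay nearest to the cecum. The log2 fold change of Cct3 was -0.72 ± 0.13 (SE, adjusted p = 0.000607, edgeR), the largest of the 8. The eta subunit Cct7 had 184, 179, 169 and 195 CPM in the cecum and 139, 121, 101, 117 and 119 CPM in the colon. The groups of Cct7 did not overlap either, and its log2 fold change was -0.60 ± 0.09 (SE, adjusted p = 7.91e-05, edgeR).

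The other called subunits in that comparison were Cct6a with a log2 fold change of -0.58 (adjusted p = 0.000391, edgeR), Cct5 with -0.49 (0.000278), Tcp1 with -0.40 (0.000735), Cct2 with -0.38 (0.00469) and Cct8 with -0.33 (0.00271). The delta subunit Cct4 had 133, 133, 149 and 149 CPM in the cecum and 137, 119, 116, 132 and 114 CPM in the colon. Its groups overlapped through colon 1, and its log2 fold change of -0.18 was not called (adjusted p = 0.0619, edgeR). The colon libraries lay wholly below the cecum libraries for 7 of 8 subunits, as for 20.7% of all genes. The median log2 fold change of the 8 was -0.45, beside -0.05 over all genes tested. Without colon control 1 all 8 were lower, Cct4 with -0.21 (adjusted p = 0.0228, edgeR) and Cct3 with -0.86. In that fit 53.3% of all genes were called in either direction, which is not comparable with the 25.3% called lower with all libraries. With upper-quartile scaling Cct8 lost its call (adjusted p = 0.0529, edgeR).

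On arsenic feed, all 8 subunits were lower in the colon than in the cecum, with 16.2% of all genes tested called lower. Cct3 had 126, 121, 113, 113 and 136 CPM in the cecum libraries 11 to 15, and 64.9, 71.5, 77.3 and 68.1 CPM in the colon libraries 11, 12, 13 and 15. The highest colon library was well below the lowest cecum library, and the log2 fold change was -0.70 (adjusted p = 0.000176, edgeR). Cct6a followed with -0.57, Cct7 with -0.54, Cct8 with -0.49, Cct5 with -0.48, Tcp1 with -0.47, Cct2 with -0.43 and Cct4 with -0.19. The groups did not overlap for any of the 8 subunits, as for 24.1% of all genes in that direction, and the median was -0.49, beside 0.02 over all genes. Cct4 was the least stable of these calls. Its adjusted p of 0.0437 (edgeR) became 0.0621 with upper-quartile scaling and 0.0907 with the replicate number as a block, and its call was also lost without cecum library 12 or 14 and without any 1 of the 4 colon libraries.

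Against the ileum the colon was lower for all 8 subunits on both feeds, with 24.5% of all genes called lower on control feed and 26.3% on arsenic feed. The theta subunit Cct8 had 139, 154, 162 and 165 CPM in the control ileum libraries 1, 2, 3 and 5, and 109.8, 107, 98.5, 102 and 103 CPM in the control colon libraries 1 to 5. No library overlapped, and its log2 fold change was -0.58 (adjusted p = 1.89e-05, edgeR). The zeta subunit Cct6a had 111, 106, 104, 120.03 and 93.5 CPM in the arsenic-fed ileum libraries 11 to 15, and 58.6, 58.9, 61.5 and 51.2 CPM in the arsenic-fed colon libraries 11, 12, 13 and 15. The colon values of Cct6a were all far below the ileum values, and its log2 fold change was -0.82 (adjusted p = 8.41e-07, edgeR), the largest of any subunit in a region comparison on arsenic feed.

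On control feed the other changes from ileum to colon were -0.65 for Cct6a, -0.57 for Cct3, -0.42 for Tcp1, -0.41 for Cct5, -0.34 for Cct2, -0.30 for Cct7 and -0.24 for Cct4 (adjusted p = 0.0156, edgeR) on the log2 scale. On arsenic feed they were -0.78 for Cct3, -0.59 for Cct8, -0.54 for Cct2, -0.46 for Cct7, -0.38 for Tcp1, -0.33 for Cct5 and -0.22 for Cct4 (adjusted p = 0.0132, edgeR). The medians were -0.42 on control and -0.50 on arsenic feed, beside 0.02 and 0.07 over all genes. The libraries did not overlap for 6 of 8 subunits on control feed, as for 18.2% of all genes in that direction, and for 7 of 8 on arsenic feed, as for 22.7%. The exceptions were Cct2 and Cct3 on control feed, where colon 1 with 155 and 125 CPM lay above the lowest ileum library with 153 and 124 CPM, and Tcp1 on arsenic feed. All 8 stayed lower without colon control 1, with a median of -0.46, and without ileum arsenic 14 and 15, an alternative chosen after seeing the data. The shares of all genes above are from the fits with all libraries.

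**Figure D2:**
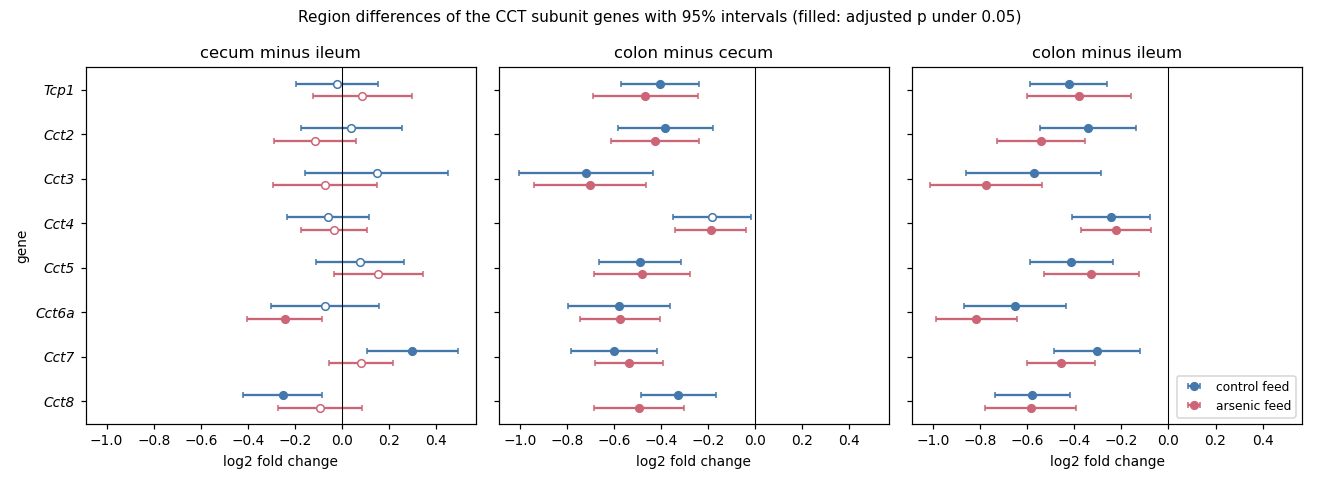
Log2 fold change of each subunit between regions (horizontal axis, with its 95% confidence interval) by gene (vertical axis), on control and on arsenic feed; filled points have an adjusted p under 0.05, and points left of 0 are lower in the region named first in the panel title. Both comparisons of the colon lie left of 0 for each subunit, from -0.18 to -0.82, and those of cecum with ileum lie around 0.

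Between cecum and ileum few subunits differed. On control feed 2 of 8 were called, beside 54.9% of all genes: Cct7 was higher in the cecum and Cct8 lower. Cct7 had 144, 147, 150 and 147 CPM in the ileum and 169 to 195 CPM in the cecum, without overlap, and its log2 fold change was 0.30 ± 0.09 (SE, adjusted p = 0.0119, edgeR). It was the only 1 of 8 with groups apart, as for 29.8% of all genes in that direction. Cct8 had 129, 124, 127 and 144 CPM in the cecum, where library 5 overlapped the ileum range of 139 to 165 CPM, and its log2 fold change was -0.25 ± 0.08 (SE, adjusted p = 0.0144, edgeR). The Cct8 call was lost without cecum control 2 (adjusted p = 0.0522, edgeR).

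The call of Cct7 depended on the scaling. Upper-quartile scaling moved the median of all genes from -0.03 to -0.19 in this comparison, and from -0.05 to 0.09 in control colon against cecum; Cct7 then had a log2 fold change of 0.13 (adjusted p = 0.22, edgeR) and Cct4 was called with -0.22 (adjusted p = 0.0286). On arsenic feed 1 of 8 was called between cecum and ileum, beside 52.2% of all genes. Cct6a had 94.5, 93.0, 88.1, 90.1 and 88.8 CPM in the cecum libraries 11 to 15, against 93.5 to 120.03 CPM in the ileum, and its log2 fold change was -0.24 ± 0.07 (SE, adjusted p = 0.0131, edgeR). The groups of Cct6a overlapped, and 0 of 8 subunits had groups apart, beside 36.4% of all genes in either direction. The call was lost with no filter on low counts (adjusted p = 0.0601, edgeR) and without cecum arsenic 13 (0.0795) or 15 (0.0709), and it held without ileum arsenic 14 and 15 (0.0091).

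Several marker lists of cell types held genes called between the same regions. Of all genes, 25.3% were called lower in control colon than in cecum and 24.5% than in ileum. With arsenic feed it was 16.2% and 26.3%. The share of all genes called higher in the colon is not given here, so the counts of higher markers are a description without it. All 10 proliferation markers were lower in the colon in each of the 4 comparisons with cecum or ileum, with median log2 fold changes from -0.80 to -1.01. Their summed level was 365 to 619 CPM in control and 398 to 686 in arsenic-fed ileum, 405 to 526 and 434 to 552 in cecum, and 253 to 323 and 226 to 299 in colon. Of 7 smooth muscle markers, all 7 were higher in the colon than in the cecum on both feeds, and 4 were higher and 1 lower than in control ileum, with 6 higher on arsenic feed. The smooth muscle sums were 3988 to 5911 CPM in control and 4890 to 7396 in arsenic-fed colon, 2077 to 2865 and 2376 to 3883 in cecum, and 2928 to 5432 and 3017 to 3503 in ileum. All 7 enteric neuron and glia markers were higher in the colon in the 4 comparisons, with sums of 52.8 to 84.1 and 60.8 to 77.2 CPM in colon, 17.0 to 25.2 and 19.4 to 26.96 in cecum and 21.0 to 34.4 and 24.3 to 30.8 in ileum. No gene of the proliferation, smooth muscle and neuron and glia lists had a group mean under 1 CPM. All 6 fibroblast markers were higher in the colon than in the cecum on both feeds, and 3 of 6 on control and 5 of 6 on arsenic feed against the ileum. Of 6 goblet markers, 5 were higher than in the cecum on both feeds, and 4 were higher and 1 lower than in the ileum. Of 7 epithelial markers, 5 were lower in control colon than in control cecum, and 2 were lower and 1 higher on arsenic feed. The epithelial sums were 11929 to 13686 CPM in control and 12159 to 14357 in arsenic-fed colon, 17809 to 19929 and 14990 to 17756 in cecum, and 11595 to 13596 and 10400 to 17565 in ileum. Against the ileum, 3 epithelial markers were higher and 2 lower in control colon, and 3 higher and 1 lower on arsenic feed. Against the ileum, 6 of 7 T cell markers were lower in control and 7 of 7 in arsenic-fed colon, and 6 of 7 Paneth cell markers were lower on both feeds. Without colon control 1, 4 fibroblast and 5 goblet markers were higher and 3 epithelial markers lower than in the ileum, and 3 T cell markers were lower than in the cecum, where 0 were lower with it. Without ileum arsenic 14 and 15, 3 epithelial markers were lower in arsenic-fed colon than in cecum. The part of these lists in the region differences was not tested.

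Partners and relatives of the chaperonin were read in the same comparisons. On control feed 25.3% of all genes were called lower in the colon than in the cecum, and 24.5% than in the ileum. On arsenic feed these shares were 16.2% and 26.3%. The prefoldin subunits, which deliver clients, were lower in the colon than in the cecum for 2 of 6 on each feed, Pfdn1 and Pfdn6 both times. Pfdn1 had 39.3 ± 2.02 CPM (SD, n = 4) in control cecum and 26.4 ± 6.66 CPM (SD, n = 5) in control colon, a log2 fold change of -0.57 ± 0.14 (SE, adjusted p = 0.0049, edgeR). Against the ileum 3 of 6 were lower in control colon (Pfdn1, Vbp1 and Pfdn4) and 5 of 6 in arsenic-fed colon (Pfdn6, Pfdn2, Pfdn1, Pfdn5 and Pfdn4). Without colon control 1 the control counts were 3 of 6 against the cecum and 6 of 6 against the ileum. Of the 3 phosducin-like genes tested, the fourth being Pdcl2 with at most 0.111 CPM in a library, 2 were lower in control colon than in either other region, Txndc9 and Pdcl3. On arsenic feed only Txndc9 was called against the cecum and only Pdcl3 against the ileum, with 2 of 3 called against the cecum without ileum arsenic 14 and 15.

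The mitochondrial chaperonin, a ring of a different family that folds proteins imported into mitochondria, was lower in the colon in all 4 comparisons. Hspd1 had log2 fold changes of -0.90 against the cecum and -0.54 against the ileum on control feed, and -1.02 and -0.90 on arsenic feed. Its partner Hspe1 had -0.54 and -0.76 on control feed, and -0.71 and -0.91 on arsenic feed. The HSP70 and HSP90 system moved both ways between regions. The shares of all genes called lower in the colon were 25.3% against the cecum and 24.5% against the ileum on control feed. They were 16.2% and 26.3% on arsenic feed. Of the 16 genes of the HSP70 and HSP90 system, 8 were lower and 1 higher in control colon than in cecum, and 5 lower and 6 higher than in ileum. Without colon control 1 the count against the cecum was the same, and against the ileum 8 were lower and 6 higher. On arsenic feed 7 were lower and 4 higher against the cecum and 8 lower and 4 higher against the ileum, with 5 higher in each case without ileum arsenic 14 and 15. Hspd1 and Hspe1 were also both called lower without these libraries.

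The effect of arsenic feed on the subunits was small beside the region differences. In the ileum 0 of 8 subunits were called by edgeR, with 7.3% of all genes called, 0 of 8 had an unadjusted p under 0.05, beside 25% of all genes, and DESeq2 called 0 of 8. Tcp1 had 109, 125, 128 and 138 CPM in the control libraries and 128, 87.5, 124, 131 and 101 CPM in the arsenic-fed libraries 11 to 15. The groups of Tcp1 overlapped, with arsenic-fed libraries 12 and 15 below all controls and none above them, and the log2 fold change was -0.17 ± 0.14 (SE, adjusted p = 0.505, edgeR). Cct2 had 156, 155, 153 and 179 CPM in controls and 172, 152, 198, 204 and 168 CPM on arsenic feed. The Cct2 groups overlapped, with a log2 fold change of 0.11 ± 0.11 (SE, adjusted p = 0.59, edgeR).

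The remaining ileum differences lay between -0.18 for Cct8 (adjusted p = 0.407, edgeR) and 0.07 for Cct7 (adjusted p = 0.68). The median of the 8 was -0.07, beside -0.00221 over all genes. None of the 8 had groups that did not overlap, beside 13.4% of all genes. Without arsenic-fed libraries 14 and 15 again 0 of 8 were called, with a median of -0.04.

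In the cecum 1 of 8 subunits was called, with 25.2% of all genes called and 13.9% called lower. Cct3 had 151, 147, 137 and 155 CPM in the control libraries and 126, 121, 113, 113 and 136 CPM in the arsenic-fed libraries. All arsenic-fed libraries were below all control libraries, by a narrow gap between control 4 and arsenic-fed 15. The log2 fold change of Cct3 was -0.24 ± 0.07 (SE, adjusted p = 0.0149, edgeR; 95% confidence interval -0.38 to -0.10). Cct3 was the only 1 of 8 with groups that did not overlap, as for 22.2% of all genes. DESeq2 also called Cct3 (adjusted p = 0.00406) and no other subunit, but the edgeR call was lost without cecum control 5 (log2 fold change -0.21, adjusted p = 0.0516) and in a fit of all 27 libraries (-0.28, adjusted p = 0.162).

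The other 7 subunits moved little in the cecum. Their log2 fold changes ran from -0.07 for Cct7 (adjusted p = 0.408, edgeR) to 0.06 for Cct4 and Cct8, with 0.03 for Cct2 and Cct5, 0.01 for Tcp1 and -0.03 for Cct6a. The median of the 8 was 0.02, the same as over all genes. In the per-length sum of 7 members, Cct3 took 13.5% ± 0.53 (SD, n = 4) in control cecum, with a range of 12.9 to 13.98%, and 11.5% ± 0.65 (SD, n = 5) on arsenic feed, with a range of 10.7 to 12.4%. The share of Cct3 was 12.5% and 12.1% in control and arsenic-fed ileum, and 11.05% ± 1.47 (SD, n = 5) and 9.74% ± 0.46 (SD, n = 4) in colon, where control without library 1 had 10.4% ± 0.51 (SD, n = 4). Cct4 showed the opposite order between regions, with mean shares of 15.7% and 16.6% in colon and 13.1% and 13.7% in cecum.

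**Figure D3:**
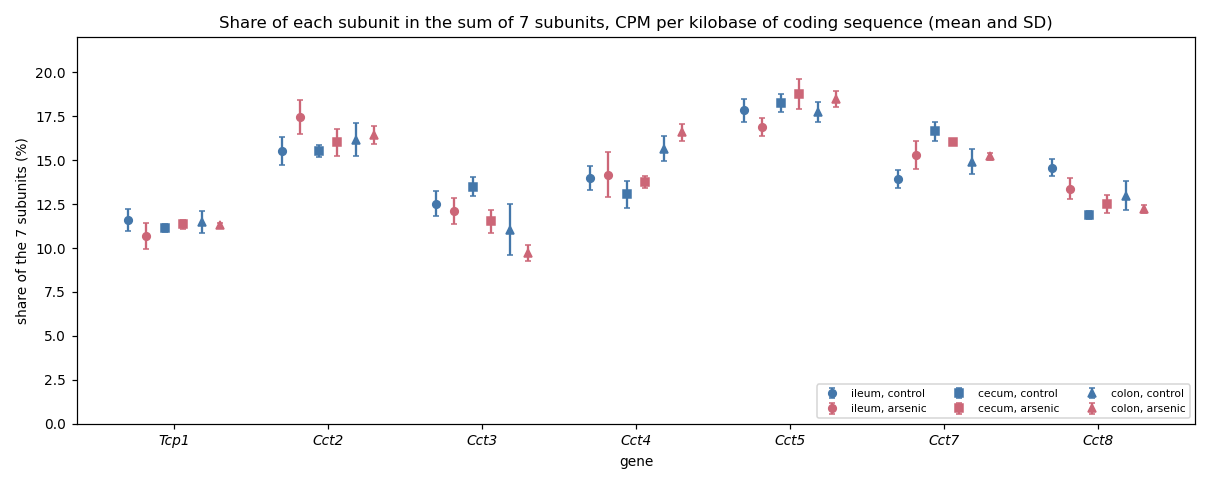
Share of each of 7 subunit transcripts in their summed CPM per kb of coding sequence, in percent (vertical axis), by gene (horizontal axis), region and feed; points are group means and bars the SD over libraries. The mean share of Cct3 in the cecum was 13.5% on control feed and 11.5% on arsenic feed.

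Several marker lists held genes called for diet in the cecum, where 25.2% of all genes were called and 13.9% were called lower. Of 7 epithelial markers 4 were lower, with sums of 17809 to 19929 CPM in control and 14990 to 17756 CPM in arsenic-fed libraries, and 3 of 6 goblet markers were lower. Of 7 T cell markers 4 were higher, of 6 fibroblast markers 3, and of 7 smooth muscle markers 2, with sums of 2077 to 2865 CPM and 2376 to 3883 CPM. The smooth muscle count is near the share of all genes called in either direction. Of 6 large-intestine position markers tested 4 were lower, Aqp8 among them with 3265 to 3940 CPM in control and 1843 to 2461 CPM in arsenic-fed libraries, without overlap. Of 7 B cell markers 0 were called by edgeR, with 6 of 7 at an unadjusted p under 0.05 and sums of 2.61 to 40.7 CPM in control and 9.99 to 192 CPM in arsenic-fed libraries. Of 14 clock genes, 7 were higher and 4 lower. Without cecum control 5 the counts were 4 of 7 epithelial, 3 of 6 goblet and 3 of 6 position markers lower, and 3 of 7 T cell, 2 of 6 fibroblast and 0 of 7 smooth muscle markers higher. Of 10 proliferation markers 0 were called by edgeR, and 0 had an unadjusted p under 0.05. No epithelial, goblet, T cell or fibroblast marker was at 0 in all libraries of a group, and the part of these lists in the Cct3 difference was not tested.

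In the colon 0 of 8 subunits were called by edgeR, with 0.649% of all genes called. Cct8 had 109.8, 107, 98.5, 102 and 103 CPM in the control libraries and 87.4, 85.1, 94.99 and 88.0 CPM in the arsenic-fed libraries. All arsenic-fed libraries were below all controls, with arsenic-fed 13 nearest to them. Its log2 fold change was -0.22 ± 0.07 (SE, unadjusted p = 0.00804, adjusted p = 0.173, edgeR). DESeq2 called Cct8 alone (log2 fold change -0.23, adjusted p = 0.0202). Cct8 was 1 of 8 with groups apart, as for 7.82% of all genes.

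Tcp1 was the other subunit with an unadjusted p under 0.05 in the colon, which makes 2 of 8, beside 14.6% of all genes. It had 98.3, 90.7, 87.9, 97.8 and 92.7 CPM in controls and 80.8, 81.7, 88.9 and 82.0 CPM on arsenic feed. Arsenic-fed 13 lay inside the control range and the other 3 below it, with a log2 fold change of -0.16 ± 0.07 (SE, adjusted p = 0.32, edgeR). Cct3 had the largest estimate, -0.33 ± 0.15 (SE, adjusted p = 0.344, edgeR), and control 1 was far above its other controls. Without that library Cct3 had -0.18 (adjusted p = 0.259), Cct8 -0.20 (0.11) and Tcp1 -0.14 (0.25), and the median of the 8 went from -0.13 to -0.05, beside -0.00689 over all genes in the fit with it. In both fits 0 of 8 were called by edgeR, and 2.14% of all genes were called without control 1.

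The diet effect was not shown to differ between regions for any subunit. The test of that difference over all 27 libraries called 0 of 8, beside 7.62% of all genes, with 0 of 8 at an unadjusted p under 0.05 and 0 of 8 by DESeq2. The lowest adjusted p was 0.26 for Cct7 and the highest 0.906 for Cct5 (edgeR). The same test reads whether the region differences depended on feed.

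The HSP70 and HSP90 system, which folds a wide range of proteins and includes the heat-inducible chaperones, was read beside the subunits. Of its 16 genes 7 were lower in arsenic-fed ileum, 15 in arsenic-fed cecum and 8 in arsenic-fed colon, with median log2 fold changes of -0.58, -0.56 and -0.65. Of all genes tested, 7.3%, 25.2% and 0.649% were called in either direction, and 13.9% were called lower in the cecum. The list was chosen with earlier results of these data known, so its counts are a description and not a test. Hspa8, the constitutive HSP70, had means of 1893 CPM in control and 1219 in arsenic-fed ileum, 2049 and 943 in cecum, and 1703 and 917 in colon. The mean sums of all 16 genes were 4460 and 3578 CPM in ileum, 4975 and 2945 in cecum, and 4221 and 2665 in colon. Hspa8 therefore weighs heavily in the summed level. The co-chaperone Chordc1 had log2 fold changes of -1.16 ± 0.09 (SE, adjusted p = 0.00133, edgeR) in ileum, -0.99 in cecum and -1.09 in colon, and Hsph1, an HSP70 exchange factor, -1.51, -1.55 and -1.55. The small heat shock protein Hspb1 was the only gene of the list called higher, with 0.43 in the cecum (adjusted p = 0.0425, edgeR), and without cecum control 5 no gene of the list was called higher and 15 were lower. Hspa1a and Hspa1b are near-identical copies whose counts are uncertain.

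The summed level of this system, of which Hspa8 is a large part, did not overlap between feeds in any region. Among single genes, groups did not overlap for 13.4% of all genes in ileum, 22.2% in cecum and 7.82% in colon. It was 4174 to 4824 CPM in control and 3223 to 3763 in arsenic-fed ileum, 4545 to 5466 and 2788 to 3100 in cecum, and 3748 to 4838 and 2474 to 2761 in colon. Without ileum arsenic 14 and 15 the count of lower genes in the ileum was 5, and without colon control 1 that in the colon was 10. The mitochondrial pair Hspd1 and Hspe1 was called in none of the 3 diet comparisons. Its log2 fold changes were 0.02 and -0.16 in ileum, -0.16 and -0.06 in cecum, and -0.39 and -0.33 in colon, where Hspd1 had an adjusted p of 0.275 (edgeR).

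**Figure D4:**
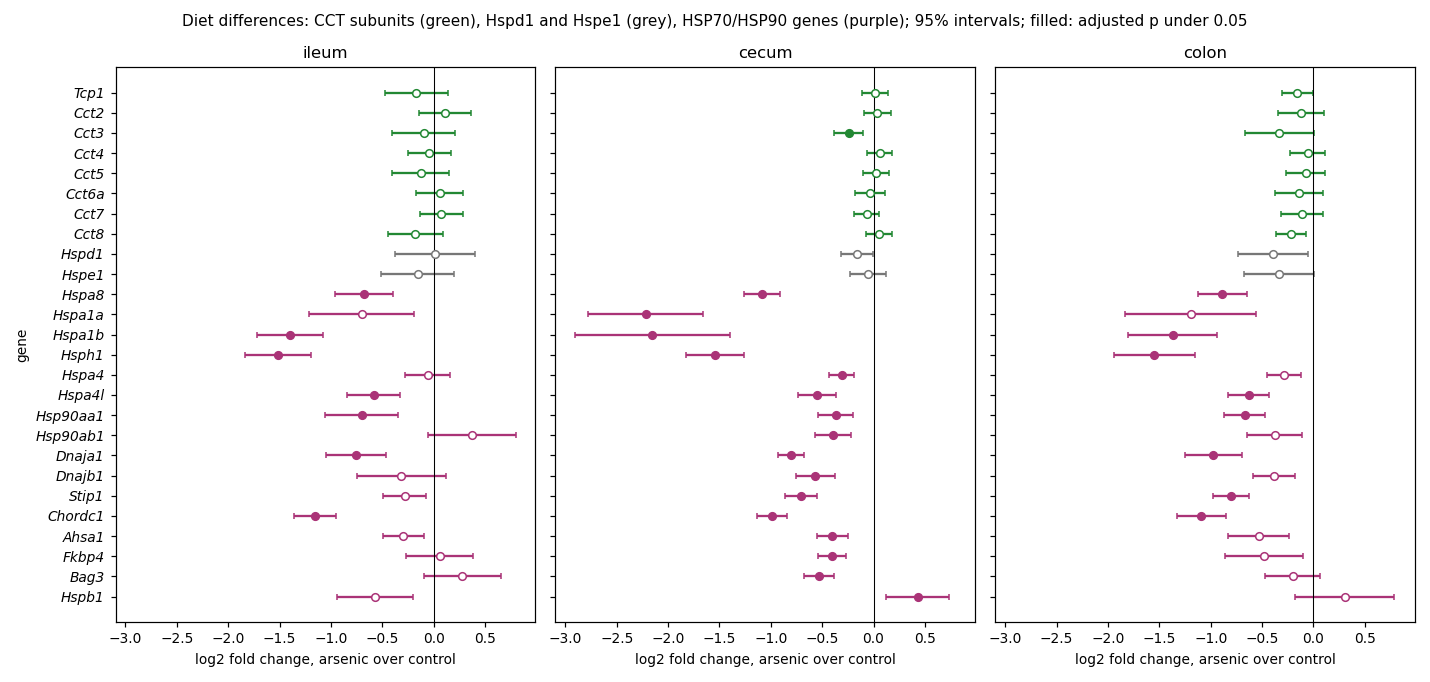
Log2 fold change on arsenic against control feed (horizontal axis, with its 95% confidence interval) for the 8 subunits, Hspd1 and Hspe1, and the 16 genes of the HSP70 and HSP90 system (vertical axis), in each region; filled points have an adjusted p under 0.05 by edgeR. Cct3 in the cecum at -0.24 is the only filled point among the subunits, while 7, 15 and 8 genes of the HSP70 and HSP90 system are filled left of 0 in ileum, cecum and colon. The 16 genes were listed with earlier results of these data known.

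**Figure D5:**
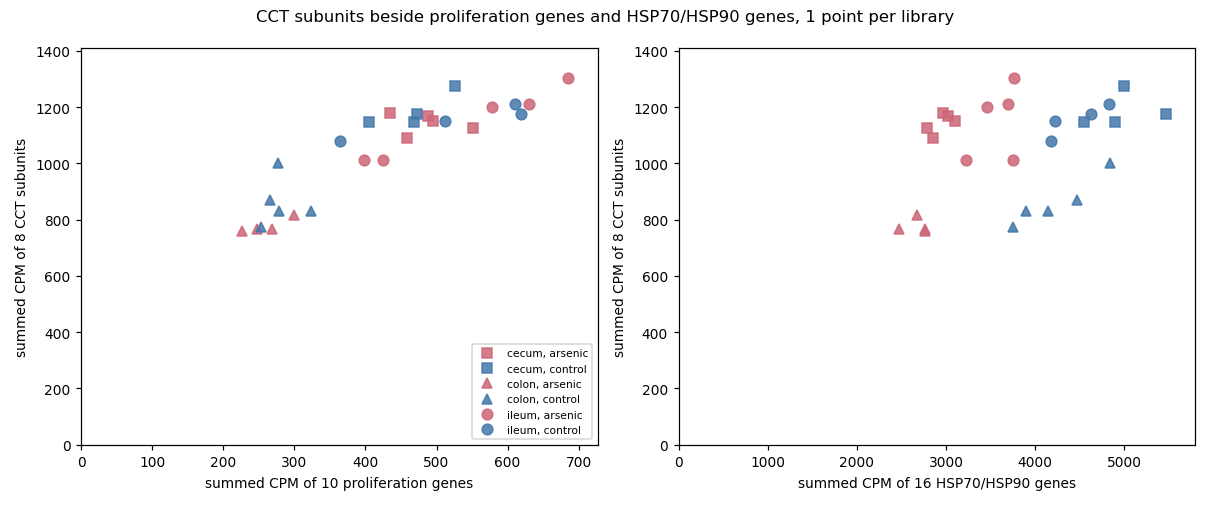
Summed CPM of the 8 subunits (vertical axis) against that of 10 proliferation markers and of the 16 HSP70 and HSP90 genes (horizontal axes); each point is a library, with shape for region and colour for feed. Colon libraries lie lowest on the vertical axis, at 759 to 999.7 CPM, and on the right panel the arsenic-fed libraries of a region lie left of its controls.

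Prefoldin and the phosducin-like co-chaperones had diet calls in the cecum only, for 2 of 6 and 1 of 3 genes tested. In that region 25.2% of all genes were called. Pfdn5 had 84.5 ± 3.57 CPM (SD, n = 4) in control and 94.6 ± 5.87 CPM (SD, n = 5) in arsenic-fed cecum, a log2 fold change of 0.20 (adjusted p = 0.0231, edgeR). Vbp1, the prefoldin subunit also known for binding the VHL protein, had 0.21 (adjusted p = 0.0323), and both calls were lost without cecum control 5. Pdcl, a co-chaperone in the folding of G protein beta subunits, had 36.0 ± 2.94 CPM (SD, n = 4) and 43.0 ± 1.91 CPM (SD, n = 5), a log2 fold change of 0.30 (adjusted p = 0.0106, edgeR). In ileum and colon 0 of 6 prefoldin and 0 of 3 phosducin-like genes were called by edgeR, beside 7.3% and 0.649% of all genes. At an unadjusted p under 0.05 (edgeR) there were 2 of 6 prefoldin genes in the ileum and 0 in the colon.

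The cofactors that take tubulin from the chaperonin and pair its chains were called higher for 2 of 6 in the ileum and 1 of 6 in the cecum. Of all genes, 7.3% and 25.2% were called in these regions in either direction. Tbcd had 29.9 ± 1.54 CPM (SD, n = 4) in control and 42.9 ± 3.58 CPM (SD, n = 5) in arsenic-fed ileum, a log2 fold change of 0.48 (adjusted p = 0.013, edgeR), and Tbcc had 0.52 (0.0475). In the cecum Tbce had 0.54 (adjusted p = 0.00111, edgeR). Tubulin genes were called in the cecum only, for 1 of 4 alpha and 2 of 8 beta and gamma genes tested. That count is near the 25.2% of all genes called in the cecum. Tuba4a had a log2 fold change of -0.72 there, Tubb2a -0.62 and Tubg1 -0.45. The difference of the diet effect between regions was itself called for Tbcd, Tbce, Tuba4a and Tubg1, but not for Tbcc or Tubb2a. No actin gene was called in any region, with Actb at 0.61 (adjusted p = 0.086, edgeR) in the ileum. At an unadjusted p under 0.05 (edgeR) there were 2 of 2 cytoplasmic and 2 of 3 muscle actin genes in the ileum. In the cecum these counts were 0 of 2 and 3 of 3, and in the colon 0 of 2 and 0 of 3.

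Of 14 other known clients, many of them WD-repeat propeller proteins, 4 were higher in arsenic-fed ileum, with Wrap53 and Gnb2 at 0.53 each and Fzr1 at 0.46. In the cecum 3 were higher, Rptor with 0.60 (adjusted p = 4.42e-05, edgeR), Mlst8 with 0.41 and Eif3i with 0.18, and 5 were lower, among them Strn and Hdac3 with -0.30 and -0.29 and Ppp2r2a with -0.26. In the colon 0 of 14 were called by edgeR, with 1 of 14 at an unadjusted p under 0.05. Of all genes, 7.3% were called in the ileum, 25.2% in the cecum (13.9% lower) and 0.649% in the colon. Without ileum arsenic 14 and 15, 1 of 14 was called in the ileum and 1 of 6 tubulin cofactors. Without colon control 1, 1 of 14 and 1 of 6 were called in the colon.

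The genes whose pattern was most like the mean log2 CPM of the 8 subunits were sought among the 9326 genes that reached an average of 10 CPM. Over the 27 libraries the highest Pearson correlations were those of Xrcc6 (0.956), Srsf1 (0.954), Hnrnpa2b1 (0.953), Hspd1 (0.953) and Pcna (0.946), with Ran and Hspe1 at 0.941 each. The colon libraries lie at the low end of this measure, so it includes the region difference. With each group's mean subtracted, the highest were Rnaseh2a (0.897), Bub3 (0.891) and, among the first 10, again Hspd1 (0.874). Without colon control 1 and ileum arsenic 14, the libraries farthest from the median, the order of these 10 changed, with Usp14 at 0.870, Bub3 at 0.849, Agpat5 at 0.842 and Rnaseh2a at 0.837. These values describe likeness across the same 27 libraries and have no test.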

How the data were processed

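The deposited table holds whole-number read counts per Ensembl gene for 27 libraries of mouse ileum, cecum and colon. Per the submitters' processing notes, HISAT2 2.1.0, SAMtools, HTSeq 0.6.0 and DESeq2 1.6.3 were used; the genome build, annotation and strand setting are not given in the sources used here. Of 52550 identifiers, 52403 matched a symbol and 147 did not.

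Groups came from the labels. Genes were filtered with filterByExpr (minimum count 10, total 15) within each comparison, scaled by TMM and tested with edgeR 4.0.16 (quasi-likelihood, limma 3.58.1, R 4.3.3) on libraries of the groups compared, with Benjamini-Hochberg adjustment over all genes at 0.05. The diet effect was fitted per region, the region differences per feed, and their difference over all libraries. DESeq2 1.42.0, upper-quartile scaling, no filter, a fit of all libraries, a replicate block and leaving out each library were the alternatives. On simulated counts, the share of genes changed 2-fold that was recovered was 53%, 78% and 58% for the diet effect (ileum, cecum, colon). It was 61% and 66% for cecum against ileum on control and arsenic feed, and 45% for the difference of the diet effect. For genes changed 4-fold it was 86%, 96%, 93%, 89%, 88% and 77%. False calls made up 4.79%, 6.95%, 5.03%, 3.85%, 7.78% and 1.61% of the genes called, in the same order. The comparisons of the colon with cecum or ileum were not simulated. Figures were drawn with matplotlib 3.10.9.

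The members and gene lists were chosen with earlier results of these data known. Named genes are the 8 members, from each pathway list up to 3 called genes per direction with the smallest p in each diet comparison, all prefoldin and phosducin-like genes, and the 10 genes most like the members; any other gene named was chosen after its values were seen. The series text speaks of rats and the sample labels of mice, and the labels were followed. Promoter letters come from RefSeq tables on GRCm38.p6.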

Additional observations from a re-analysis of the deposited data

Results flagged for a closer look

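In each group of 4 or 5 libraries, the highest and lowest value of each subunit and of the sum of all 8 were compared with their nearest neighbour by Dixon's criterion, which gave 6 of 54 groups with a library far from the others. Chance flags about 1 in 20 groups. In control colon, Cct3 in library 1 had 125 CPM against 70.5 to 84.7 CPM in the others. That library, the one with 0 counts of Hoxb13, was also the highest colon library for every other subunit, without being flagged for them. In arsenic-fed colon, library 13 was high for Tcp1 (88.9 CPM, others 80.8 to 82.0), for Cct5 (144 CPM, others 128 to 130.4) and for the sum of the 8 (816 CPM, others 759 to 768). Control ileum library 5 had 179 CPM of Cct2 against 153 to 156, and control cecum library 5 had 219.6 CPM of Cct5 against 189.9 to 193.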

How the results depend on the processing

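Of 1600 member values recomputed under the alternatives, 1581 stayed on the same side of the threshold, 16 lost and 3 gained a call, and 24 changed sign, none of them called. Leaving out 1 library at a time gave 121 to 1583 genes called for diet in the ileum (1190 with all), 3070 to 4313 in the cecum (3933) and 6 to 351 in the colon (107). The subunits called were then 0 to 0 in ileum and colon and 0 to 1 in cecum, and between regions 1 to 2, 7 to 8 and 8 to 8 on control feed and 0 to 1, 7 to 8 and 8 to 8 on arsenic feed (cecum against ileum, colon against cecum, colon against ileum). DESeq2 gave 2105 genes in the ileum and 656 in the colon, with 1 subunit there. A fit of all 27 libraries gave 2889, 2021 and 493 genes, with 0 subunits in the cecum. Without ileum arsenic 14 and 15 the ileum count was 673. The difference of the diet effect between regions (1353 genes) gave 551 to 1866 with 1 library left out, 827 with no filter and 899 without those 2 libraries, and 0 subunits each time. With no filter, 0 subunits were called between arsenic-fed cecum and ileum.

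Feeds share no library numbers, so no paired analysis of diet was possible. Between regions, same-numbered libraries correlated at -0.108 to 0.248, 13 of 24 pairs over 0.1. Of 27 libraries, 18 correlated best with their own number, although most libraries compared on the same feed carried another number. The labels do not say whether equal numbers are the same mouse, and they were not taken as pairs. If they are, the region tests without the block leave out that pairing. With the replicate block, 8837, 7751 and 8565 genes were called on control feed with 2, 7 and 8 subunits, and 8959, 6580 and 9972 on arsenic feed with 1, 7 and 8, and 1287 genes and 0 subunits for the difference of the diet effect. Depth did not limit the subunits, which had at least 944 counts each; with 4 or 5 libraries a group, small differences can be missed.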
